A study of Mus musculus with 12 samples.

Results

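The genes described here are those of 2 families of pre-mRNA splicing factors, the heterogeneous nuclear ribonucleoproteins with a symbol starting with Hnrnp and the serine/arginine-rich (SR) proteins with a symbol starting with Srsf. They were chosen by symbol alone, from probe sets annotated with exactly 1 gene symbol. This gave 29 of the 22180 genes measured, 19 Hnrnp and 10 Srsf genes. Hnrnpu was kept with both of its probe sets and every other gene with its brightest one over the 12 arrays, so that 30 of 22181 probe sets, 1 per row of the analysis, are described. Hnrnpa1, Hnrnph3 and Srsf7 were not analysed here.

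RNA of brown adipose tissue came from 10-week-old male mice and was measured on whole-transcript arrays, 3 per group. The 4 groups were Zbtb7b knockout (KO) mice after 4 h at 4 °C (cold), wild-type (WT) mice after 4 h at 4 °C, KO mice at 22 °C (room temperature) and WT mice at 22 °C, all on standard chow. Zbtb7b is a zinc finger transcription factor, and how its knockout allele was made, and in which cells it acts, is not given in the sources used here. The titles number the arrays of a group as biological replicates, whereas the description field of the same labels numbers pools and names liver and another knockout. The p-values therefore measure the spread between these arrays, which may be single mice or pools.

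Zbtb7b had log2 signals of 2.96, 3.38 and 3.01 in KO cold arrays, 4.36, 4.26 and 4.63 in WT cold arrays, 3.62, 3.50 and 3.30 in KO room-temperature arrays and 4.47, 4.52 and 4.76 in WT room-temperature arrays, lower in every KO array than in every WT array. Ucp1, the uncoupling protein that defines brown fat, lay between 11.55 and 12.95 on all 12 arrays, whereas 6 hepatocyte genes averaged 2.21 to 2.63 per array. Array medians over all probe sets were 2.63 to 2.83. The mean of 11 skeletal muscle genes differed widely within groups. It was 9.04, 4.82 and 8.87 in KO cold arrays, 5.79, 7.88 and 8.51 in WT cold arrays, 9.29, 8.19 and 3.21 in KO room-temperature arrays and 3.30, 7.20 and 2.73 in WT room-temperature arrays, and 0 of the 11 genes passed the test in any comparison. The group mean was 4.41 in WT room-temperature arrays, against 6.90 in KO room-temperature, 7.39 in WT cold and 7.58 in KO cold arrays. All 11 genes lay higher in the cold, with a median difference of 3.17 in WT, 0.67 in KO and 1.92 over both genotypes. All 11 lay higher in KO than in WT at room temperature (median 2.52). Between KO and WT in the cold, 5 lay higher and 6 lower (median -0.04). The part of this muscle signal in the results was not tested beyond a fit that holds its mean as a covariate. That fit ended 5 calls of members, cited below.

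The hnRNP proteins coat newly made transcripts and often keep splice sites from being used, although many also stabilise, export or help to translate messenger RNA. SR proteins carry an RNA-recognition motif and a tail rich in arginine and serine, bind exonic enhancers and recruit the spliceosome. Kinases of the CLK and SRPK families phosphorylate the tail, which sets where SR proteins reside in the nucleus and whether they act. Many members of both families also limit their own messenger RNA through exons whose inclusion or skipping sends it to decay. Probe-set signals cover exons of a gene together and do not separate such isoforms. In bulk tissue, fewer cells of a type and less RNA per cell cannot be told apart.

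For 27 of the 29 genes the RefSeq promoter table (GRCm38.p6) held a start site, 39 windows of 250 bases upstream in all. They were searched on both strands for TGACGTCA (the cyclic AMP response element, CRE), TGACG (its half-site, which the full element contains), CCAAT and GAANNTTC (a pair of heat shock units). The windows shown are those of the 5 genes that rose in the cold in both genotypes, as given below, and have a single start in the table, and of Srsf5, the SR gene that fell. They read 5′ to 3′ on the gene's strand, with the CRE half-site (TGACG, or CGTCA on the other strand) and CCAAT (or ATTGG) in capitals.

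Hnrnpu (chr1:178337816-178338065, minus strand): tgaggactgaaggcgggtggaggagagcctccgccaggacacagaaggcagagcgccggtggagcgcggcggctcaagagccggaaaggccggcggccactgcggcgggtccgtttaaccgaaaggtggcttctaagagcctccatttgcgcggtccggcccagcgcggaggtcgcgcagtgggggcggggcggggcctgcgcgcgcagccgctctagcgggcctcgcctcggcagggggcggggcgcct

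Hnrnpc (chr14:52104022-52104271, minus strand): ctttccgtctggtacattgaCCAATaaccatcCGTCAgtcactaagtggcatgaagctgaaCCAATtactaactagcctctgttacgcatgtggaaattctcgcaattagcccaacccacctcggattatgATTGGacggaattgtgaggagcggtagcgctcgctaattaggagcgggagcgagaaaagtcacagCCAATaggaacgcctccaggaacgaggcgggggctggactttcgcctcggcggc

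Hnrnph2 (chrX:134600929-134601178, plus strand): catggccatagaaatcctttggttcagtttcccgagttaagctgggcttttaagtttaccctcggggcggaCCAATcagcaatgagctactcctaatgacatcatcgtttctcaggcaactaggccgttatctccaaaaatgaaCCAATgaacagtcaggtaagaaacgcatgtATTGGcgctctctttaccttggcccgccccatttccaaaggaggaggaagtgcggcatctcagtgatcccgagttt

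Srsf3 (chr17:29032410-29032659, plus strand): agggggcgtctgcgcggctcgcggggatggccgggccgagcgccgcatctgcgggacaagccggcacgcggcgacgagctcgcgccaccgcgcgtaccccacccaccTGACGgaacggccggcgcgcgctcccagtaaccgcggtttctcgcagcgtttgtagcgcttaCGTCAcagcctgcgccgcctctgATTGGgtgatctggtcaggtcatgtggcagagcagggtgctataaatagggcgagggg

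Srsf6 (chr2:162931258-162931507, plus strand): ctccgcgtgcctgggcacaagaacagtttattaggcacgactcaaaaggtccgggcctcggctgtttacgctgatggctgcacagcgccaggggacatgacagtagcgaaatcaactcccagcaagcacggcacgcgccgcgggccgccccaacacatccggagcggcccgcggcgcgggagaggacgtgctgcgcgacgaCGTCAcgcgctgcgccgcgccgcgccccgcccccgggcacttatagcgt

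Srsf5 (chr12:80945249-80945498, plus strand): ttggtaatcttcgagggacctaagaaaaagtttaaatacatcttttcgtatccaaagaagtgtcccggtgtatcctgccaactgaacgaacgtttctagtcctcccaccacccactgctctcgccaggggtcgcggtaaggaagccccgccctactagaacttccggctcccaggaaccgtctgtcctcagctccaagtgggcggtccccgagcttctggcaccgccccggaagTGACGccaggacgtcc

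The half-site stands with its first base at -143 and -81 from the start in Srsf3, at -49 in Srsf6, at -218 in Hnrnpc and at -16 in Srsf5, and the Hnrnpu and Hnrnph2 windows hold none. CCAAT stands at 4 positions in Hnrnpc and 3 in Hnrnph2, at -58 in Srsf3, and at none in Hnrnpu, Srsf6 or Srsf5. The half-site was found in 20 of the 39 windows (51.3%), against 27.9% of windows of genes averaging 5 or more in log2 signal and 17.8% of all 32851 windows. CCAAT was found in 51.3% of the members' windows, against 34.2% and 33.8%. GAANNTTC was in 4 of 39 windows (10.3%), against 4.83% and 6.69%, and the full element in 0 of 39, against 2.79% and 1.55%. Split by the cold comparison given next, the half-site was present for 7 of the 12 genes that rose, 2 of the 3 that fell and 7 of the 12 that did not pass. Genes with several starts gave several windows, and some overlap, as for Hnrnpa2b1 and Hnrnph1. In the shares of windows the same site can therefore be counted more than once. A match is a string of letters, not a binding site.

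The first question is what cold did to these factors. Averaged over both genotypes, 12 of the 30 probe sets rose in the cold and 3 fell (limma, Benjamini-Hochberg adjusted p under 0.05 over all 22181 rows). Of all rows, 12.9% rose and 14.3% fell. Of the members 28 of 30 averaged 5 or more in log2 signal, against 8476 of all 22181 rows. The shares over all rows given beside members therefore include many more dim rows. The median difference of the members was 0.27 on the log2 scale, against -0.01 over all rows. SR genes gave 6 higher and 1 lower of 10 with a median of 0.48, and hnRNP probe sets 6 higher and 2 lower of 20 with a median of 0.18. The mean of the 10 SR genes was 6.97, 7.22 and 7.04 in KO cold arrays and 7.09, 7.14 and 7.06 in WT cold arrays. At room temperature it was 6.68, 6.54 and 6.74 in KO arrays and 6.77, 6.75 and 6.73 in WT arrays. All 6 cold arrays thus lay above all 6 others. The mean of the 20 hnRNP probe sets did not separate in this way. It was 7.65 to 7.90 in KO cold arrays and 7.86 to 7.94 in WT cold arrays. At room temperature the hnRNP mean was 7.59 to 7.70 in KO arrays and 7.64 to 7.84 in WT arrays. Over all 30 members the lowest cold array (7.43, KO) lay below the highest room-temperature array (7.47, WT).

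Hnrnpu encodes hnRNP U (also scaffold attachment factor A), which binds RNA and chromatin and is known in brown fat as a partner of Zbtb7b and of the long noncoding RNA Blnc1. Its brighter probe set had log2 signals of 10.47, 10.69 and 10.42 in KO cold arrays and 10.57, 10.43 and 10.64 in WT cold arrays, against 9.62, 9.59 and 9.51 in KO room-temperature arrays and 9.84, 9.86 and 9.69 in WT room-temperature arrays. All cold arrays were above all room-temperature arrays, and the gap was wider than the range of any group. The averaged difference was 0.85 ± 0.08 (SE; 1.8-fold, adjusted p = 1.51e-05), with 0.95 ± 0.12 in KO (adjusted p = 2.07e-04) and 0.75 ± 0.12 in WT (adjusted p = 0.00111). The dimmer probe set of the gene did not pass in any of the 7 comparisons. It had 7.43, 7.28 and 6.42 in KO cold arrays, 7.21, 7.02 and 6.88 in WT cold arrays, 6.89, 7.28 and 6.52 in KO room-temperature arrays and 6.94, 6.59 and 6.96 in WT room-temperature arrays. These groups overlap, and the averaged cold difference of 0.18 ± 0.18 had a 95% confidence interval of -0.22 to 0.57 (adjusted p = 0.549), which lies below that of the brighter probe set.

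Among the other hnRNP genes, Hnrnpc and Hnrnph2 rose in both genotypes. Hnrnpc encodes the C proteins, which bind uridine tracts and compete with the splicing factor U2AF65. Its log2 signals were 9.29, 9.62 and 9.44 in KO cold arrays and 9.62, 9.69 and 9.56 in WT cold arrays, against 8.61, 8.80 and 8.66 in KO room-temperature arrays and 8.90, 8.76 and 8.97 in WT room-temperature arrays. The lowest cold array stood above the highest room-temperature array. The averaged difference was 0.75 ± 0.09 (1.69-fold, adjusted p = 4.49e-05), with 0.76 in KO and 0.75 in WT (adjusted p = 0.0011 and 0.00138).

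Hnrnph2 is a paralog of Hnrnph1, and both encode proteins that bind guanine runs. Hnrnph2 had 7.26, 7.51 and 7.60 in KO cold arrays and 7.53, 7.43 and 7.48 in WT cold arrays, against 6.63, 6.69 and 6.58 in KO room-temperature arrays and 6.83, 6.91 and 7.14 in WT room-temperature arrays, without overlap. It rose by 0.82 in KO and 0.52 in WT (adjusted p = 8.88e-04 and 0.0148). Hnrnph1 passed in the averaged comparison alone, at 0.41 ± 0.12 (adjusted p = 0.026). Its signals were 6.88, 7.21 and 6.86 in KO cold arrays and 7.44, 7.39 and 7.04 in WT cold arrays, against 6.36, 6.89 and 6.61 in KO room-temperature arrays and 6.86, 6.65 and 7.0 in WT room-temperature arrays. Single KO arrays overlap here, whereas the WT cold arrays all exceed the WT room-temperature arrays. The averaged call held in 14 of 20 alternative settings and was lost with median centring of the arrays (adjusted p = 0.072) and without any of 5 single arrays (adjusted p = 0.0629 to 0.0676).

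Hnrnpab and Hnrnpa3 also passed in the averaged comparison. Hnrnpab, which encodes a relative of the RNA-binding protein hnRNP D, had 10.01, 10.32 and 10.39 in KO cold arrays and 10.70, 10.38 and 10.49 in WT cold arrays, against 9.85, 9.84 and 10.21 in KO room-temperature arrays and 10.05, 9.83 and 10.16 in WT room-temperature arrays. The KO groups overlap and the WT groups do not. The averaged difference was 0.39 ± 0.11 (adjusted p = 0.0199), with 0.51 in WT (adjusted p = 0.0436) and 0.27 in KO (adjusted p = 0.287). The averaged call held in 17 of 20 alternative settings, and the WT call in 11 of 21, where it was lost with cyclic loess, with median centring and without single arrays (adjusted p up to 0.161). Hnrnpa3, of the hnRNP A/B group, had 7.36, 7.65 and 7.65 in KO cold arrays and 7.34, 7.36 and 7.46 in WT cold arrays, against 7.18, 7.06 and 7.34 in KO room-temperature arrays and 7.12, 7.23 and 7.20 in WT room-temperature arrays. Within each genotype the cold arrays stand above the others by a small margin, and the averaged difference was 0.28 ± 0.09 (adjusted p = 0.0336). That call held in 10 of 20 alternative settings.

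**Figure D1:**
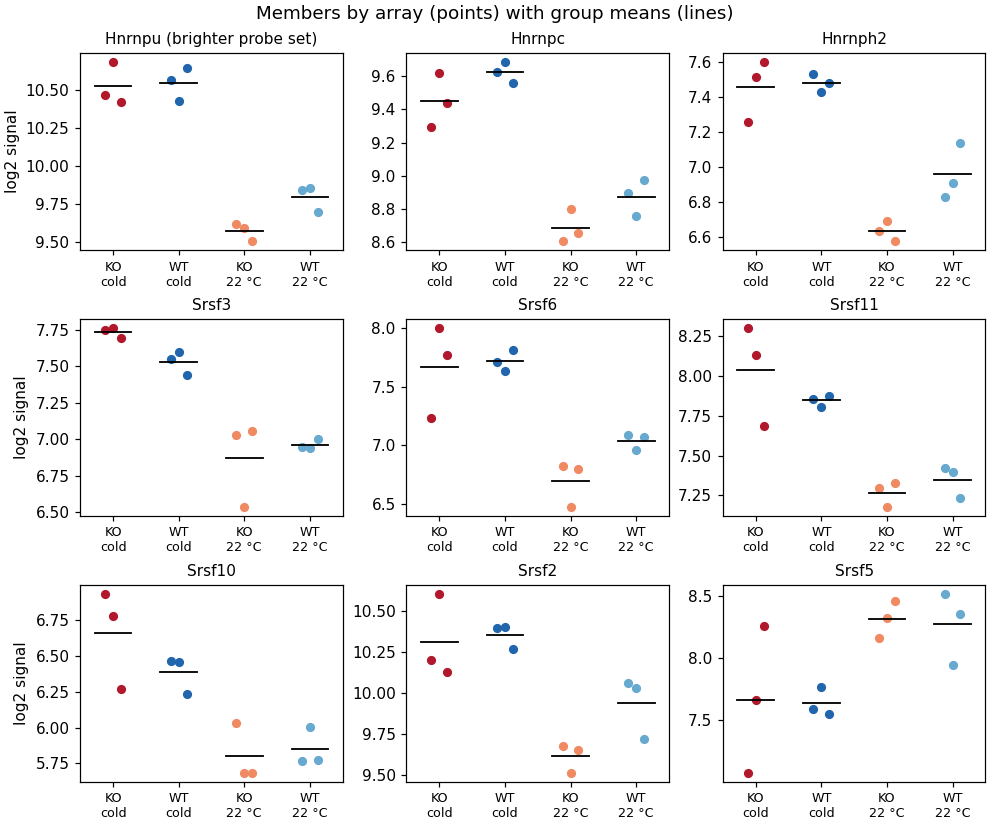
Log2 signal (vertical axis, each panel with its own range) of 8 members that rose in the cold and of Srsf5, which fell, in the KO cold, WT cold, KO 22 °C and WT 22 °C groups; points are the 3 arrays of a group and lines their mean. In the 8 rising members no cold array lies at or below any 22 °C array, whereas 1 KO cold array of Srsf5 (8.25) lies among the 22 °C arrays.

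Of the SR genes, Srsf3, Srsf6 and Srsf11 rose in both genotypes. Srsf3 encodes the smallest SR protein, which also acts in export of messenger RNA. It had 7.75, 7.76 and 7.69 in KO cold arrays and 7.55, 7.60 and 7.44 in WT cold arrays, against 7.03, 6.54 and 7.06 in KO room-temperature arrays and 6.95, 6.94 and 7.0 in WT room-temperature arrays. No cold array reached down to a room-temperature array, and the KO cold arrays were the highest of all. Its difference was 0.86 ± 0.14 in KO (adjusted p = 0.00117) and 0.57 ± 0.14 in WT (adjusted p = 0.0154).

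Srsf6, a regulator of alternative exons, had 7.23, 8.0 and 7.77 in KO cold arrays and 7.71, 7.63 and 7.81 in WT cold arrays, against 6.82, 6.47 and 6.80 in KO room-temperature arrays and 7.08, 6.95 and 7.07 in WT room-temperature arrays. The first KO cold array was the lowest of the cold arrays and still stood above the room-temperature arrays. The difference was 0.97 ± 0.18 in KO and 0.68 ± 0.18 in WT (adjusted p = 0.00245 and 0.0199). Srsf11, which encodes an SR-related protein known to interact with U2AF65, had 8.30, 8.13 and 7.68 in KO cold arrays and 7.86, 7.81 and 7.88 in WT cold arrays, against 7.29, 7.18 and 7.33 in KO room-temperature arrays and 7.42, 7.40 and 7.23 in WT room-temperature arrays. Cold and room-temperature arrays did not overlap, and it rose by 0.77 in KO and 0.50 in WT (adjusted p = 0.0034 and 0.04). The WT call of Srsf11 held in 10 of 21 alternative settings, and it was lost with the skeletal muscle mean as a covariate (adjusted p = 0.069).

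Srsf10 and Srsf2 passed in KO and in the averaged comparison, with a difference of the same sign in WT that missed the threshold. Srsf10 encodes a factor that, in human cells, is dephosphorylated on heat shock and then represses splicing. It had 6.93, 6.78 and 6.27 in KO cold arrays and 6.46, 6.46 and 6.24 in WT cold arrays, against 6.03, 5.69 and 5.68 in KO room-temperature arrays and 5.77, 6.0 and 5.78 in WT room-temperature arrays, again without overlap. The difference was 0.86 ± 0.18 in KO (adjusted p = 0.00466) and 0.54 ± 0.18 in WT (adjusted p = 0.0567). Srsf2 encodes SC35, a marker of nuclear speckles. It had 10.20, 10.60 and 10.13 in KO cold arrays and 10.39, 10.40 and 10.27 in WT cold arrays, against 9.67, 9.51 and 9.65 in KO room-temperature arrays and 10.06, 10.03 and 9.72 in WT room-temperature arrays. The groups are apart in each genotype, with 0.70 ± 0.15 in KO (adjusted p = 0.0058) and 0.42 ± 0.15 in WT (adjusted p = 0.0774).

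Srsf12, close to the array medians, had 3.01, 2.65 and 3.04 in KO cold arrays and 2.60, 2.68 and 2.72 in WT cold arrays, against 2.27, 2.43 and 2.47 in KO room-temperature arrays and 2.15, 2.75 and 2.27 in WT room-temperature arrays. The KO groups are apart and the WT groups overlap. It rose by 0.39 over both genotypes and by 0.51 in KO (adjusted p = 0.0246 and 0.0493), and these calls held in 10 of 19 and 3 of 20 alternative settings. Both were lost with median centring (adjusted p = 0.076 and 0.136) and with the skeletal muscle mean as a covariate (adjusted p = 0.0828 and 0.0516).

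Srsf5, Hnrnpa0 and Hnrnpul1 fell in the averaged comparison. Srsf5, an SR gene known in rat liver cells for its response to insulin and growth signals, had 7.08, 7.66 and 8.25 in KO cold arrays and 7.59, 7.77 and 7.55 in WT cold arrays, against 8.16, 8.32 and 8.46 in KO room-temperature arrays and 8.51, 7.94 and 8.35 in WT room-temperature arrays. The third KO cold array overlaps the room-temperature arrays, and in WT there is no overlap. The averaged difference was -0.64 ± 0.17 (adjusted p = 0.0156), with -0.65 in KO and -0.63 in WT, neither past the threshold alone (adjusted p = 0.0943 and 0.105).

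Hnrnpa0 encodes an hnRNP that binds AU-rich messenger RNA in mouse macrophages. It had 5.17, 6.0 and 6.18 in KO cold arrays and 6.03, 6.18 and 5.97 in WT cold arrays, against 6.25, 6.42 and 6.45 in KO room-temperature arrays and 6.78, 6.34 and 6.80 in WT room-temperature arrays. The first KO cold array was the lowest, and cold and room-temperature arrays were apart. It fell by 0.58 over both genotypes (adjusted p = 0.017). Hnrnpul1, an hnRNP U paralog linked to DNA repair, had 9.16, 9.25 and 9.13 in KO cold arrays and 8.97, 9.02 and 9.05 in WT cold arrays, against 9.55, 9.49 and 9.35 in KO room-temperature arrays and 9.33, 9.42 and 9.16 in WT room-temperature arrays. In each genotype all cold arrays were lower, by a small step of -0.29 ± 0.08 on average (adjusted p = 0.0191). With the skeletal muscle mean as a covariate, Srsf5 and Hnrnpa0 did not pass (adjusted p = 0.0517 and 0.0581).

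Tested in each genotype alone, cold gave 9 higher and 0 lower members in KO, where 8.34% of all rows rose and 10.8% fell. In WT it gave 7 higher and 0 lower, where 9.39% rose and 7.98% fell. Limited to rows averaging 5 or more in log2 signal, 13 of 28 members rose and 1 fell in WT. There 2131 of the 8476 rows rose and 1560 fell. In KO 2 of the 28 fell with that limit, where 2152 of the 8476 rows fell. The members' median difference was 0.18 in KO and 0.29 in WT, against 0.00 and -0.02 over all rows. Hnrnpc, Hnrnph2, the brighter Hnrnpu probe set, Srsf3, Srsf6 and Srsf11 passed upward in both, 6 of 30, where 5.66% of all rows did. Judged by arrays alone, 9 members lay higher in the cold without overlap in both genotypes (8.68% of all rows), those 6 with Hnrnpa3, Srsf2 and Srsf10. In the other direction there were 2, Hnrnpa0 and Hnrnpul1 (9.72% of all rows). Fewer than the 7 members passed upward in WT with some single arrays left out, and the calls over all rows, 2082 with all arrays, fell there too. Without WT cold replicate 1, 2 members and 1445 rows passed upward. Without WT cold replicate 2 or 3 it was 4 members, with 1517 and 1442 rows. Without WT room-temperature replicate 1 it was 4 members and 1598 rows, and without replicate 2 of that group 3 members and 1469 rows.

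**Figure D2:**
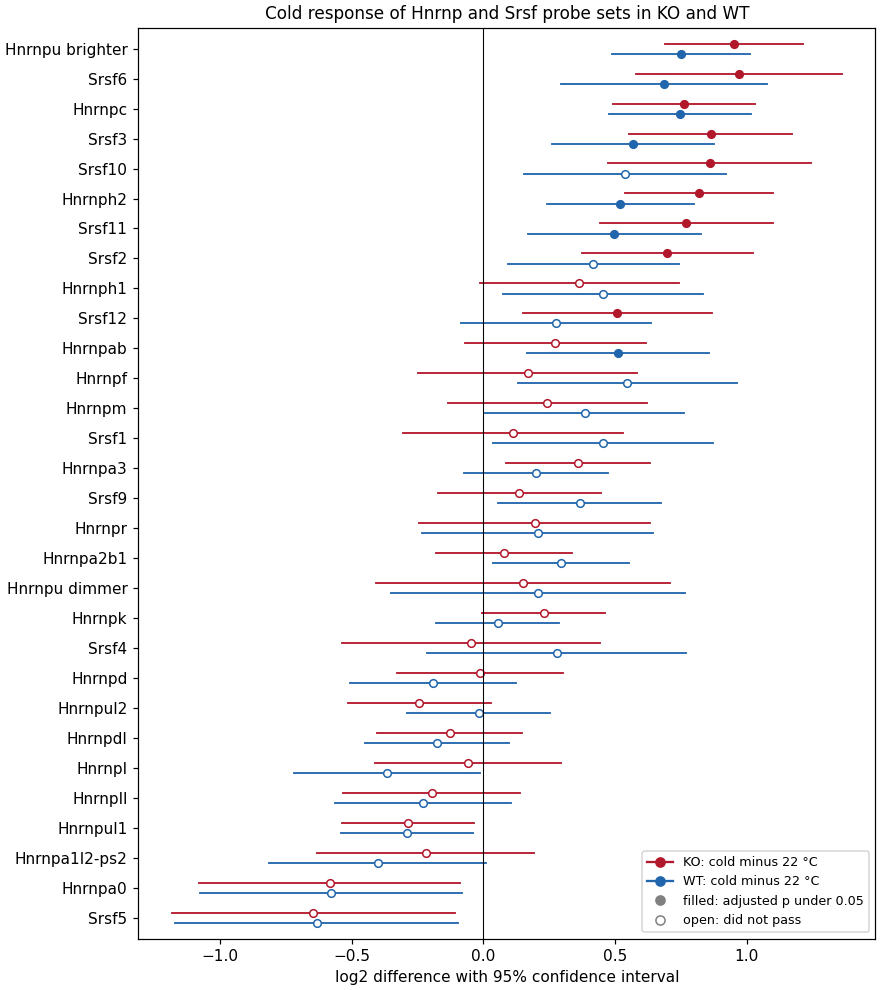
Cold minus 22 °C difference (log2) of each of the 30 probe sets, KO above WT, with 95% confidence intervals and filled points where the adjusted p is under 0.05, ordered by the averaged difference. The brighter Hnrnpu probe set is at the top with 0.95 in KO and 0.75 in WT, and Srsf5 at the bottom with -0.65 and -0.63.

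Whether the cold response differed between genotypes was tested by the interaction, the KO response minus the WT response. It called 0 of 30 members (limma, adjusted p), 0 of them also at an unadjusted p under 0.05, where 0.0271% and 10.5% of all rows were called. The 3 members with the smallest p were Hnrnph2 (0.30, 95% confidence interval -0.10 to 0.70, adjusted p = 0.592), Srsf3 (0.29, -0.14 to 0.73, adjusted p = 0.631) and Hnrnpf (-0.38, -0.97 to 0.21, adjusted p = 0.648). For the brighter Hnrnpu probe set it was 0.20 with an interval of -0.17 to 0.57 (adjusted p = 0.697). Of the 10 SR genes, the interaction was above 0 for 6 and below 0 for 4. The intervals of the 4 probe sets just given include 0, and they also include differences in response of 0.5 in one direction.

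The second question is whether loss of Zbtb7b changed these factors. Of the 30 members 0 passed between KO and WT in the cold, 0 at room temperature and 0 with both averaged (limma, adjusted p), where 0.911%, 0.55% and 1.63% of all rows passed. At an unadjusted p under 0.05 there were 5, 2 and 6 members, where 14.4%, 11.4% and 14.7% of all rows were counted. The median difference was -0.04 in the cold, -0.10 at 22 °C and -0.13 averaged. For the brighter Hnrnpu probe set, KO minus WT was -0.02 in the cold (95% confidence interval -0.28 to 0.24, adjusted p = 0.961) and -0.23 at room temperature (-0.49 to 0.04, adjusted p = 0.521). At room temperature every KO array of it lay below every WT array.

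Hnrnpa2b1 had the smallest p of the members in the cold and over both temperatures. It encodes hnRNP A2 and B1, which act in the splicing and transport of RNA. Its log2 signals were 8.83, 9.10 and 8.83 in KO cold arrays against 9.38, 9.25 and 9.42 in WT cold arrays, and 8.84, 8.86 and 8.82 in KO room-temperature arrays against 9.06, 8.97 and 9.14 in WT room-temperature arrays. All KO arrays were lower at each temperature, the only member for which this held, where 1.54% of all rows did so. The difference was -0.43 ± 0.12 in the cold, -0.22 ± 0.12 at room temperature and -0.32 ± 0.08 over both (adjusted p = 0.117, 0.539 and 0.0784). Over both temperatures it passed when the test was limited to the 8476 rows averaging 5 or more in log2 signal (adjusted p = 0.0314) and with a trended, robust estimate of the spread (adjusted p = 0.0422). In the cold it passed with that limit on signal (adjusted p = 0.0476). It stayed short of the threshold in 18 of 20 alternative settings over both temperatures and in 20 of 21 in the cold. Across them the difference ran from -0.37 to -0.23 over both and from -0.52 to -0.25 in the cold.

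Srsf1 and Srsf9 had the next smallest p in the cold. Srsf1 encodes the founding SR protein, SF2/ASF. Its brighter probe set had 7.28, 8.03 and 7.18 in KO cold arrays against 8.12, 8.19 and 7.97 in WT cold arrays, and 7.48, 7.23 and 7.44 in KO room-temperature arrays against 7.65, 7.62 and 7.64 in WT room-temperature arrays. The second KO cold array stood with the WT cold arrays and apart from the other KO cold arrays. The difference in the cold was -0.60 ± 0.19 (adjusted p = 0.179). It was past the threshold without that array (adjusted p = 0.0176), and was -0.06 with KO cold replicates 1 and 3 left out instead.

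Srsf9 encodes an SR protein with a short arginine- and serine-rich tail. It had 6.47, 6.13 and 6.06 in KO cold arrays against 6.61, 6.72 and 6.63 in WT cold arrays, and 5.87, 6.13 and 6.25 in KO room-temperature arrays against 6.38, 6.27 and 6.21 in WT room-temperature arrays. The cold groups are apart and the room-temperature groups overlap. The difference was -0.43 ± 0.14 in the cold and -0.32 ± 0.10 over both temperatures (adjusted p = 0.19 and 0.153).

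Hnrnpl and Hnrnpf complete the members with the smallest p. Hnrnpl encodes a protein that binds CA repeats. It had 7.77, 8.09 and 8.41 in KO cold arrays against 8.13, 8.14 and 8.28 in WT cold arrays, and 8.04, 8.15 and 8.27 in KO room-temperature arrays against 8.72, 8.37 and 8.56 in WT room-temperature arrays. All KO room-temperature arrays lay below the WT room-temperature arrays, with a difference of -0.40 (adjusted p = 0.372). Hnrnpf encodes a guanine-run binder like Hnrnph1. It had 7.58, 8.17 and 8.25 in KO cold arrays against 8.66, 8.47 and 8.32 in WT cold arrays, and 7.61, 7.80 and 8.08 in KO room-temperature arrays against 7.98, 7.76 and 8.08 in WT room-temperature arrays. The KO cold arrays were all lower than the WT cold arrays, by -0.49 (adjusted p = 0.268), and the room-temperature groups overlap.

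**Figure D3:**
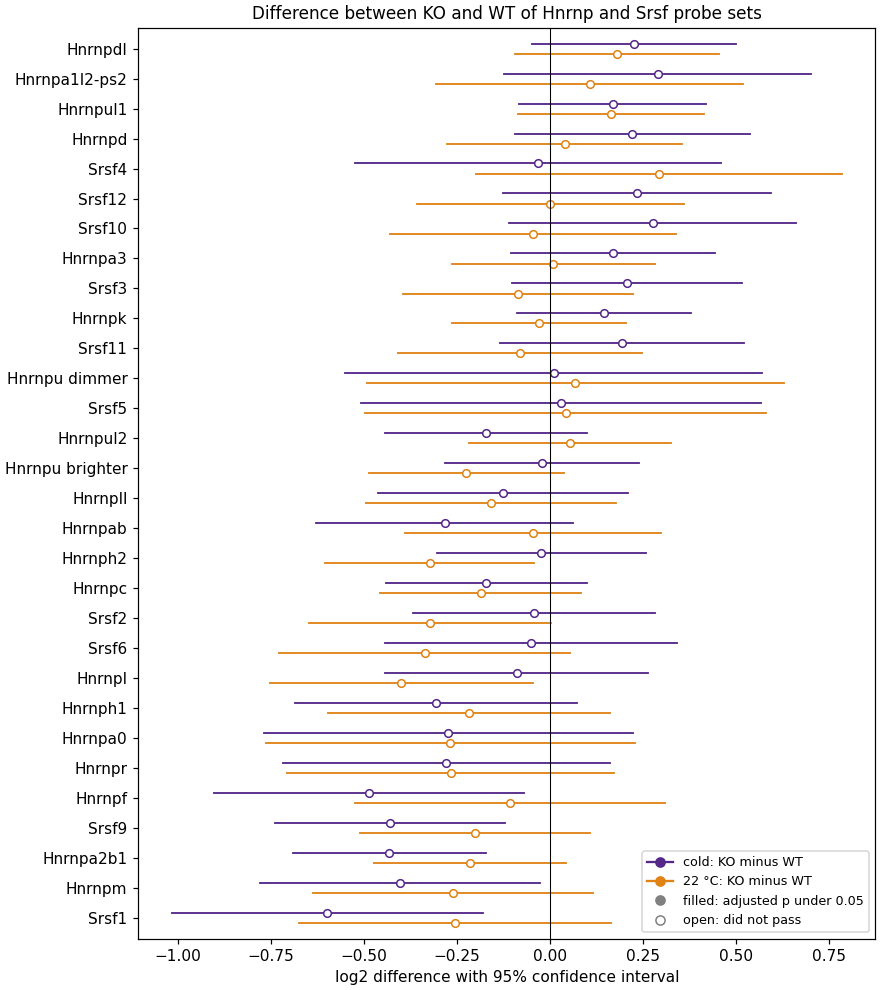
KO minus WT difference (log2) of the 30 probe sets in the cold (above) and at 22 °C (below), with 95% confidence intervals, ordered by the mean of both. All points are open because no adjusted p is under 0.05, and Srsf1 (-0.60 in the cold) and Hnrnpa2b1 (-0.43 in the cold) are among the lowest.

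The remaining 9 genes passed in no comparison. They are Hnrnpd and Hnrnpdl, whose proteins bind AU-rich messenger RNA, Hnrnpk, which binds cytosine-rich sequence, Hnrnpll, a regulator of Ptprc exons in T cells, Hnrnpm, Hnrnpr, Hnrnpul2, Srsf4 and Hnrnpa1l2-ps2, named as a pseudogene. Their averaged cold differences ran from -0.31 for Hnrnpa1l2-ps2 to 0.31 for Hnrnpm (adjusted p = 0.114 and 0.0812). Hnrnpa1l2-ps2 lay between 0.59 and 1.40 on the 12 arrays, under every array's median. The others lay between 5.36 (Hnrnpr) and 11.23 (Hnrnpk).

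Of the 29 genes, 8 have several probe sets, and each of the 11 left aside was tested in a fit with every probe set as its own row. Some moved with the brightest one and others did not. The second Hnrnph2 probe set rose in the cold by 1.00 ± 0.14 over both genotypes (adjusted p = 2.11e-04). For Hnrnpf, the next 3 probe sets by signal rose by 0.55, 0.50 and 0.47 (adjusted p = 0.00132, 0.00298 and 0.0403), whereas the brightest, at 0.36, did not pass (adjusted p = 0.0716).

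The second Hnrnpul1 probe set, whose group means lay between 2.12 and 2.66, close to the array medians, had a cold difference of the opposite sign to the brighter one, 0.31 ± 0.13 over both genotypes and 0.55 ± 0.18 in WT (adjusted p = 0.102 and 0.0643), against the fall of 0.29 over both genotypes in the brighter one. The dimmer Srsf6 probe set differed by 0.22 ± 0.16 (adjusted p = 0.375), against 0.83 ± 0.13 in the brighter one (adjusted p = 3.48e-04). Group means of the dimmer one lay between 1.96 and 2.25, under the array medians, where a response would be hard to see.

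For Srsf1 the probe sets differed between genotypes. Its dimmer probe set had 6.27, 6.01 and 6.10 in KO cold arrays against 5.61, 5.56 and 5.62 in WT cold arrays, and 5.87, 6.03 and 5.83 in KO room-temperature arrays against 5.43, 5.61 and 5.32 in WT room-temperature arrays. All 6 KO arrays lay above all 6 WT arrays, the opposite side from the brighter probe set. The difference was 0.53 ± 0.12 in the cold, 0.46 ± 0.12 at room temperature and 0.49 ± 0.09 over both (adjusted p = 0.076, 0.152 and 0.0172), so that it rose in KO over both temperatures. This probe set was singled out after its values were seen, and the call did not hold without WT cold replicate 1 or 2 (adjusted p = 0.0509 and 0.0505). Which part of the gene each probe set covers was not examined. The averaged cold difference was 0.18 for the dimmer and 0.28 for the brighter probe set, neither past the threshold.

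**Figure D4:**
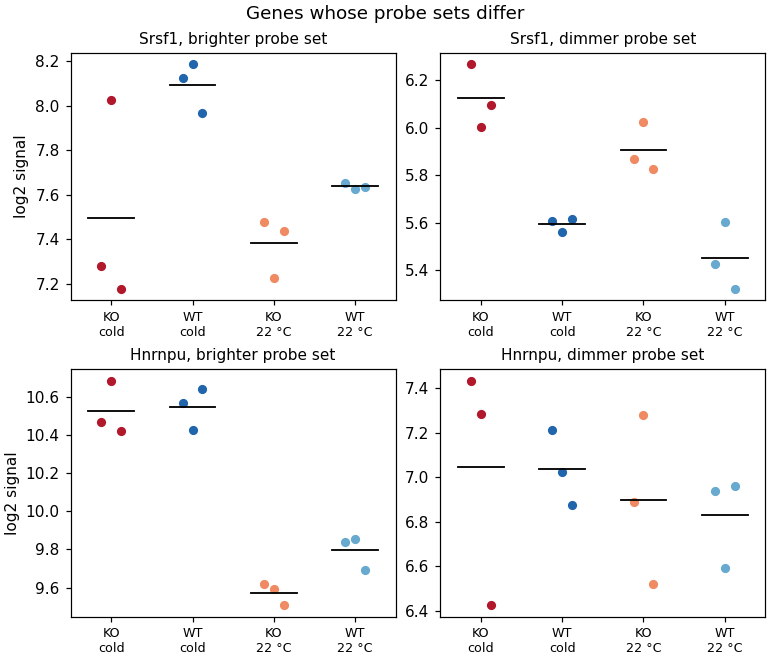
Log2 signal by array (points) and group mean (lines) of both probe sets of Srsf1 (top) and of Hnrnpu (bottom), each panel with its own vertical range. In Srsf1 the dimmer probe set is higher in all KO arrays than in all WT arrays while the brighter one is not, and in Hnrnpu the brighter probe set alone separates cold from 22 °C.

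Other genes of splicing are described by lists. Of 9 kinases of SR proteins measured, 5 rose and 2 fell in the cold over both genotypes, with a median difference of 0.29. Clk4, of the CLK family, had 8.22, 8.32 and 8.19 in KO cold arrays and 8.25, 8.06 and 8.22 in WT cold arrays, against 7.21, 7.35 and 6.95 in KO room-temperature arrays and 7.49, 7.35 and 7.39 in WT room-temperature arrays, and rose by 0.92 ± 0.09 (adjusted p = 1.39e-05). Prpf4b rose by 0.99 and Dyrk1a by 0.79 (adjusted p = 6.53e-05 and 1.91e-04). Its paralog Dyrk1b went the other way. It had 7.30, 6.70 and 6.91 in KO cold arrays and 6.92, 7.32 and 7.44 in WT cold arrays, against 8.65, 8.79 and 8.26 in KO room-temperature arrays and 8.53, 8.81 and 8.68 in WT room-temperature arrays, a difference of -1.52 ± 0.14 (adjusted p = 7.87e-06). Of the kinases dedicated to SR proteins, Srpk1 rose and Srpk2 fell (0.47 and -0.41, adjusted p = 0.00497 and 0.0263).

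SR-related genes, which share the arginine- and serine-rich tail, rose in 18 of 30 cases and fell in 1, with a median of 0.37. Tra2a, an activator of exon inclusion, had 7.50, 7.90 and 7.99 in KO cold arrays and 8.06, 7.71 and 7.72 in WT cold arrays, against 6.71, 6.49 and 6.65 in KO room-temperature arrays and 6.81, 6.87 and 7.24 in WT room-temperature arrays, and rose by 1.02 ± 0.12 (adjusted p = 5.10e-05). Sfswap, Srek1 and Rbm39 rose by 0.75, 0.73 and 0.59. Of 63 core spliceosome and small nuclear ribonucleoprotein genes, 21 rose and 4 fell, with a median of 0.25. U2af2, which encodes the U2AF65 that recognises the polypyrimidine tract, rose by 0.89 ± 0.10 (adjusted p = 3.36e-05), and Prpf3, Prpf39 and Rbm17 by 0.92, 0.74 and 0.65.

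Of 43 other regulators of splicing, 14 rose and 4 fell, with a median of 0.23. Elavl1, which encodes the messenger RNA stabiliser HuR, had 9.54, 9.74 and 9.23 in KO cold arrays and 10.02, 10.07 and 10.05 in WT cold arrays, against 8.32, 8.54 and 8.54 in KO room-temperature arrays and 8.69, 8.78 and 8.83 in WT room-temperature arrays, and rose by 1.16 ± 0.10 (adjusted p = 4.42e-06). Of 15 hnRNP-family genes under another symbol, 8 rose and 1 fell, with a median of 0.29. Ptbp2, a paralog of the polypyrimidine tract-binding protein, rose by 0.83 ± 0.10 (adjusted p = 6.21e-05). The gene that fell was Cirbp, the cold-inducible RNA-binding protein, known for its induction by mild hypothermia in cultured cells. It had 3.35, 3.40 and 4.93 in KO cold arrays and 4.06, 3.80 and 3.58 in WT cold arrays, against 4.85, 5.38 and 5.83 in KO room-temperature arrays and 5.17, 4.81 and 5.62 in WT room-temperature arrays. The third KO cold array reached into the range of the room-temperature arrays, and the averaged difference was -1.42 ± 0.27 (adjusted p = 0.00172).

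**Figure D5:**
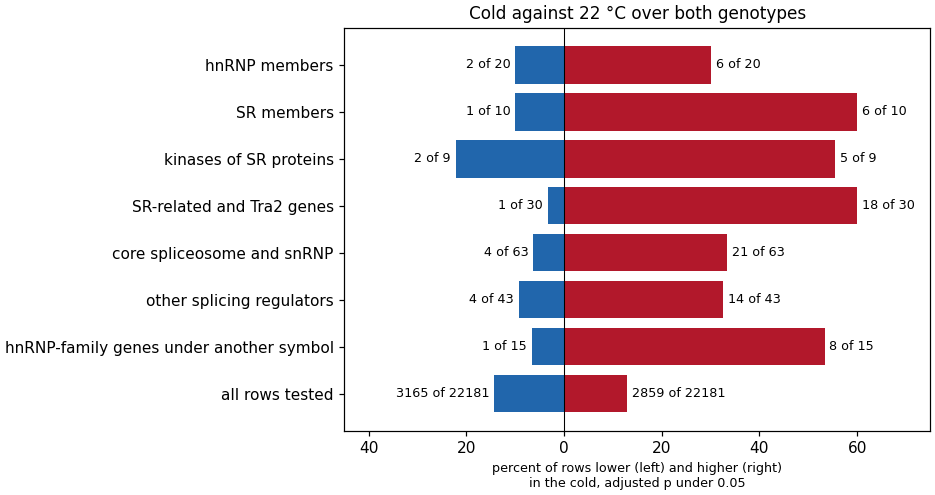
Percent of the measured rows of each group of splicing genes that were higher (right) and lower (left) in the cold over both genotypes at an adjusted p under 0.05, with the counts, and the same over all 22181 rows at the bottom. In all 7 groups more rows were higher than lower, whereas over all rows 2859 were higher and 3165 lower.

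Between KO and WT, 2 of the 160 genes measured in these 5 lists passed over both temperatures, or 1.25%, where 1.63% of all rows passed. Srrm1, a splicing coactivator with arginine- and serine-rich repeats, had 9.25, 9.08 and 9.07 in KO cold arrays against 8.52, 8.68 and 8.72 in WT cold arrays, and 9.10, 9.0 and 8.69 in KO room-temperature arrays against 8.58, 8.66 and 8.48 in WT room-temperature arrays. It was higher in every KO array than in every WT array of its temperature, by 0.43 ± 0.09 (adjusted p = 0.0456). Mbnl3, a muscleblind-like splicing regulator, had 6.66, 6.86 and 7.56 in KO cold arrays against 6.03, 5.82 and 6.16 in WT cold arrays, and 5.71, 5.64 and 5.77 in KO room-temperature arrays against 5.36, 5.47 and 5.58 in WT room-temperature arrays. Its difference was 0.63 ± 0.14 over both temperatures and 1.03 ± 0.20 in the cold (adjusted p = 0.0456 and 0.033). Of the 63 core spliceosome genes, 52 lay lower in KO than in WT in the cold, with a median of -0.15 and 0 past the test, where 51.6% of all rows lay above 0 with a median of 0.01. At room temperature 33 lay lower and 30 higher, with a median of -0.01 and 0 past the test.

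Marker genes of brown adipocytes and of other cells were read beside these results. The mean of 7 macrophage genes was 6.62 to 7.43 in KO cold arrays, 6.64 to 6.93 in WT cold arrays, 6.87 to 7.15 in KO room-temperature arrays and 6.0 to 6.39 in WT room-temperature arrays, lowest in the last group. Of the 7, 4 rose in WT cold, and 2 rose and 1 fell in KO cold (limma, adjusted p). Of all rows 9.39% rose in WT, and 8.34% rose and 10.8% fell in KO. Between KO and WT 2 were higher in the cold, 2 over both temperatures and 0 passed at room temperature. Of all rows 0.911%, 1.63% and 0.55% passed there. The mean of 7 brown adipocyte genes was 10.68 to 10.82 in KO cold arrays, 10.84 to 10.89 in WT cold arrays, 8.29 to 8.71 in KO room-temperature arrays and 9.46 to 9.50 in WT room-temperature arrays, higher in the cold and lowest in KO at room temperature. That mean does not describe each gene. In the cold over both genotypes 4 of the 7 rose and 2 fell (limma, adjusted p), with differences from -0.45 to 5.15, where 12.9% of all rows rose and 14.3% fell. Between KO and WT 3 of the 7 were lower at room temperature and 0 passed in the cold, where 0.55% and 0.911% of all rows passed. The mean of 8 neutrophil genes was 3.72 in the third KO cold array and 1.59 to 2.27 in the other arrays. The mean of 5 T cell genes was 3.13 to 3.60 in KO cold arrays, 3.61 to 4.36 in WT cold arrays, 3.42 to 4.41 in KO room-temperature arrays and 3.18 to 3.49 in WT room-temperature arrays. Of these 5 T cell genes Cd8a alone passed, higher in KO than in WT at room temperature (0.99, adjusted p = 0.0208), lower in the cold in KO (-0.68, adjusted p = 0.0114) and higher in the cold in WT (0.66, adjusted p = 0.0151). All 5 T cell genes lay lower in KO than in WT in the cold, and 0 of them passed there. The part of these cells in the results was not tested.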

How the data were processed

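The values are log2 signals per probe set that the authors deposited. Per the submitters' processing notes, oligo, RMA and limma were used, versions not given in the sources used here. RMA removes background, makes the arrays' distributions equal and combines probes into 1 value per probe set, so a shift shared by most genes would be lost. Of 41345 probe sets, 23521 carried 1 gene symbol in the platform annotation given and were used.

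In R 4.3.3 with limma 3.58.1 the 4 group means were estimated together from 12 arrays (lmFit, eBayes), without a filter on low signal. It gave 7 two-sided comparisons, each adjusted by Benjamini-Hochberg over 22181 rows, passing at an adjusted p under 0.05. The procedure was tested on simulated data in which few rows were changed. Log2 differences of 0.5 and of 1 were planted in equal numbers. For cold against room temperature in KO the procedure recovered 6 of those of 0.5 and 50 of those of 1, with 2 false calls. Most planted differences of 0.5 and many of those of 1 were thus missed, so a count of 0 does not exclude differences of either size. Errors are SEs of the difference. Precision is limited by having 3 arrays a group. The members and lists were chosen with earlier results of these data known. Every array is given for Hnrnpu, for members that passed anywhere and for the 3 with the smallest p in each comparison. From each other list the 4 genes with the smallest p in a comparison could be named. Among the kinases, Srpk1 and Srpk2 were named beyond the 4 with the smallest p for cold over both genotypes. Deviations of same-numbered arrays correlated between -0.54 and 0.45, over 0.1 in 6 of 18 cases, so the numbers were not taken as pairs.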

Additional observations from a re-analysis of the deposited data

How the results depend on the processing

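Alternatives were every probe set as a row, a mean log2 signal of at least 5 (8476 rows, 28 of the 30 members), cyclic loess, median centring, a trended and robust spread, a replicate block, the 6 arrays of a comparison alone and each array left out. The skeletal muscle covariate and leaving out KO cold replicates 1 and 3 together were added after seeing the data. In the cold over both genotypes, the brighter Hnrnpu probe set, Hnrnpc, Hnrnph2, Srsf2, Srsf3, Srsf6, Srsf10 and Srsf11 passed in all 20 alternatives, and those 8 also in all 21 in KO, whereas in WT only Hnrnpu and Hnrnpc did so. With a mean of at least 5, 1 member was lower for KO against WT in the cold (266 of 8476 rows) and 1 over both temperatures (350 rows). In WT cold 1 was lower (1560 rows) and 13 were higher (2131 rows), and in KO cold 2 were lower (2152 rows). A trended spread gave 1 lower for KO against WT over both (239 of 22181 rows), and median centring 1 lower in KO cold (3218 rows). The 6 arrays alone gave 2 lower in WT cold (2013 rows), and the muscle covariate 1 lower in the cold over both (2759 rows). Without KO cold replicates 1 and 3, WT cold gave 11 higher and 2 lower. Leaving out single arrays gave 0 to 1 lower for KO against WT in the cold and over both, 2 to 9 higher and 0 to 2 lower in WT cold, and 0 to 2 lower in KO cold. The 1 lower came without KO cold replicate 2, where 195 of 22181 rows were lower in the cold and 186 over both. The 2 lower in WT cold came without KO cold replicate 1 (1980 rows), and the 2 in KO cold without KO cold replicate 3 (2386 rows).

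The results that changed sign are Hnrnpu differences that passed in no setting. For the brighter probe set KO minus WT in the cold was 0.024 with cyclic loess, 0.14 without KO cold replicates 1 and 3, and -0.10 to 0.030 with single arrays left out. For the dimmer one it was -0.024 with median centring, and -0.18 to 0.32 with single arrays left out. With single arrays left out the dimmer one ranged from -0.13 to 0.25 for KO against WT at room temperature, -0.059 to 0.19 over both temperatures and -0.044 to 0.46 for cold in KO. Its interaction was 0.060 with cyclic loess, 0.18 without KO cold replicates 1 and 3, and -0.25 to 0.25 with single arrays left out. The cause of these changes was not tested. Median centring moved every difference by -0.12 for cold in KO, by -0.08 for cold over both genotypes and by -0.05 to 0.04 for cold in WT and for KO against WT. The replicate block gave 8 members higher in KO cold and 8 in WT cold, and of the members named it ended 1 call, Srsf12 in KO cold (0.51, adjusted p = 0.0706).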

Other observations

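Among the other regulators of splicing, some genes were picked after their values were seen. Rbm47, an RNA-binding regulator of epithelial and other cells, had 5.42, 5.66 and 5.31 in KO cold arrays and 5.91, 5.82 and 6.15 in WT cold arrays, against 3.94, 4.62 and 3.56 in KO room-temperature arrays and 4.94, 4.44 and 4.55 in WT room-temperature arrays, with no overlap between cold and room temperature. Esrp2, an epithelial splicing regulator, had 3.32, 4.12 and 4.30 in KO cold arrays and 3.79, 4.13 and 3.66 in WT cold arrays, against 5.11, 4.83 and 4.27 in KO room-temperature arrays and 4.92, 5.89 and 6.07 in WT room-temperature arrays. Over both genotypes Rbm47 rose by 1.37 ± 0.17 and Esrp2 fell by 1.29 (limma, adjusted p = 6.16e-05 and 0.00108). The third KO cold array of Esrp2 overlapped the KO room-temperature arrays.

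Pspc1 and Sfpq, whose proteins sit together in paraspeckles, both rose in the cold, by 0.85 ± 0.10 and 0.41 ± 0.13 (adjusted p = 3.57e-05 and 0.0306). Tardbp, which encodes TDP-43, had 6.93, 7.41 and 6.88 in KO cold arrays and 7.47, 7.31 and 7.46 in WT cold arrays, against 6.32, 6.34 and 6.49 in KO room-temperature arrays and 6.01, 6.33 and 6.65 in WT room-temperature arrays, and rose by 0.89 ± 0.13 (adjusted p = 2.16e-04). All 6 cold arrays of Tardbp lay above all 6 room-temperature arrays.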
